A study of Mus musculus with 5 samples.

Results

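The core clock and clock output genes described here are 10 genes of the liver clock, chosen by name from a table of 33589 gene rows. They are the activator gene Clock, the repressor genes Per1, Per2, Per3, Cry1 and Cry2, the REV-ERB genes Nr1d1 and Nr1d2, and the PAR-bZIP genes Dbp and Tef. All 10 had a row and all 10 passed the filter on low values. Their mRNA was measured by RNA-seq in 5 whole livers of male mice kept on a high-fat diet (4 weeks). The 3 knockout livers carried floxed Heg1 together with Lyve1-Cre (Lyve1-Cre;Hegfl/fl), a recombinase expressed from the Lyve1 gene of lymphatic and sinusoidal endothelial cells. The 2 control livers carried the same floxed gene without Cre (Hegfl/fl). Both genotypes had the same diet and sex, and the stated age of 6 weeks. The labels give no hour of tissue collection, lighting schedule or feeding schedule. The livers are numbered within each genotype, and nothing says that they came from different animals. All p-values therefore measure only how these libraries vary, which may be technical.

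The mammalian clock is a feedback loop of transcription. The proteins CLOCK and BMAL1 bind E-box DNA elements and switch on the Per, Cry and REV-ERB genes and the gene Dbp. PER and CRY proteins then return to block CLOCK and BMAL1, while the REV-ERB proteins repress Bmal1 through ROR elements, at which the ROR receptors activate it. DBP, TEF and HLF bind D-box elements and pass the rhythm on to genes of drug and lipid metabolism, against the repressor NFIL3. In livers of mice fed in the dark, Nr1d1 and Dbp mRNA peak in the light phase, Per1 and Per2 near dusk, Cry1 late at night, and Bmal1, Npas2 and Clock around dawn. A single collection hour is therefore a snapshot in which some of these mRNAs stand near their peak and others near their trough.

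The DNA elements of this loop were looked up in the 250 bases before annotated starts (RefSeq sequences, build GRCm38.p6, which shares its coordinates with mm10). Windows were available for 9 of the 10 members, and Per2 was the one without. The E-box CACGTG was found in the windows of Per1, Cry1 and Tef and in 6.02% of all 32851 windows. The variant CACGTT was found for Cry1, Cry2 and Nr1d1 and in 3.85% of all windows. The D-box TTATGTAA was found for Per3, in 2 copies, and in 0.819% of all windows. The ROR element TAGGTCA was found for 0 members and in 2.23% of all windows. Both strands were searched, and no matches overlapped each other. A match describes the letters only. The windows of Per1 (chr11:69098699-69098948 on the plus strand), Cry1 (chr10:85185055-85185304 on the minus strand), Nr1d1 (chr11:98775378-98775627 on the minus strand), Per3 (chr4:151044666-151044915 on the minus strand) and the second annotated start of Tef (chr15:81811164-81811413 on the plus strand) are shown because they hold the elements of the loop in a PER gene, a CRY gene, a REV-ERB gene and a PAR-bZIP gene. They run 5′ to 3′ on the strand of the gene, with the matched elements in capitals on whichever strand they match.
Per1: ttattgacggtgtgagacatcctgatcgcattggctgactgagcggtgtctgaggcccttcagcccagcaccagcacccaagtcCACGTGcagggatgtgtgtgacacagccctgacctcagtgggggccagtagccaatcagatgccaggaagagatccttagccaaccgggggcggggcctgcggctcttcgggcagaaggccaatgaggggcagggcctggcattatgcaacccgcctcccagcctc
Cry1: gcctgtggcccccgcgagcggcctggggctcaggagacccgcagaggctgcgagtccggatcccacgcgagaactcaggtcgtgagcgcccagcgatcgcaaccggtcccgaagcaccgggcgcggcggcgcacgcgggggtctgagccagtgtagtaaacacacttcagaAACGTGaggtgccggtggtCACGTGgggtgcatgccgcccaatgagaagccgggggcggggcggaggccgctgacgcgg
Nr1d1: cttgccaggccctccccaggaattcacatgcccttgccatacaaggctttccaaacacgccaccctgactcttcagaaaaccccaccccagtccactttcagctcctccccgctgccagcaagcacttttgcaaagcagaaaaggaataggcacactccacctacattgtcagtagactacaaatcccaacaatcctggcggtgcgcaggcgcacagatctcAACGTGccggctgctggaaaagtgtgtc
Per3: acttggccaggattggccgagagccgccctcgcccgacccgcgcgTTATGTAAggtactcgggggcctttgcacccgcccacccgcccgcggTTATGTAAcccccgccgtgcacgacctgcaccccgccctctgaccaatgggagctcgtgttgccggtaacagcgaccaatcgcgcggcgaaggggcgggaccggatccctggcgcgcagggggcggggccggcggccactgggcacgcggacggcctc
Tef: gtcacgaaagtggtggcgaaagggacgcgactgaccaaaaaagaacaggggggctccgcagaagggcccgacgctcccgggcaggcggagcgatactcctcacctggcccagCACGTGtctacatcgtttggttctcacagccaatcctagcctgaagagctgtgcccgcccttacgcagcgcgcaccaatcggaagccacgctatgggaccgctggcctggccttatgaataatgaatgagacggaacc

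The 5 livers showed 1 common pattern of levels. In every liver Dbp was the most abundant member and Tef the next, followed by the REV-ERB genes, while Clock and Cry1 were the least abundant. Values are given in FPKM, a count of fragments divided by the length of the transcript and the size of the library, so levels can be set against each other between genes. Of the 45 pairs of members, 38 stood in the same order in all 5 livers. The 7 pairs that changed order were close neighbours, namely Clock with Cry1, Nr1d1 with Nr1d2, and 5 pairs among Per1, Per2, Per3 and Cry2. A pair counted as changed if 1 liver had the other order, as with Per1, which stood above Cry2 in control 2 only. The levels of these neighbours were not tested against each other.

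**Figure D1:**
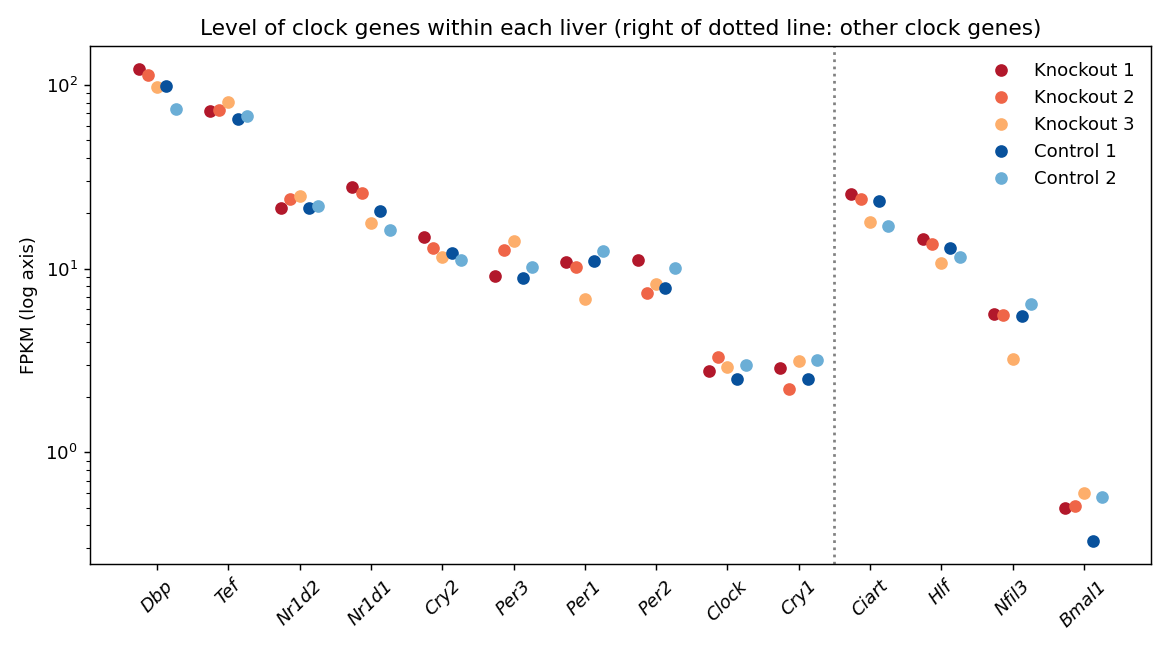
FPKM on a log axis for the 10 members (left of the dotted line) and 4 other clock genes (right of it), with 1 point per liver, knockouts before controls. Dbp and Tef stand highest, Clock and Cry1 lowest among the members, and Bmal1 lies between 0.33 and 0.6 FPKM.

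Within-liver ratios carry no library scaling and were compared between livers. Dbp mRNA stood 43.6, 34.4 and 33.6 times above Clock mRNA in knockouts 1, 2 and 3, against 39.1 and 24.9 times in controls 1 and 2. The Nr1d1 to Clock ratio was 10, 7.82 and 6.10 in knockouts and 8.22 and 5.47 in controls. The highest and lowest liver thus differed by 1.75 times for the first ratio and by 1.83 times for the second, and the genotypes overlapped in both. Against Cry1, a late-night gene, Dbp stood 42.3, 51.3 and 30.8 times higher in knockouts and 39.0 and 23.3 times higher in controls. Bmal1, the gene for the partner of CLOCK, is no member, and its row lay below the filter. It had 0.50, 0.51 and 0.60 FPKM in knockouts and 0.33 and 0.57 FPKM in controls. Dbp exceeded it 243, 222 and 162 times in knockouts and 298 and 130 times in controls. Dbp mRNA thus exceeded Bmal1 mRNA in each of the 5 livers, and the highest and lowest of these ratios differed by 2.29 times. Without the peak and trough level of either gene, this order does not say where in its cycle a liver stood. The hour at which the livers were taken was not tested.

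**Figure D2:**
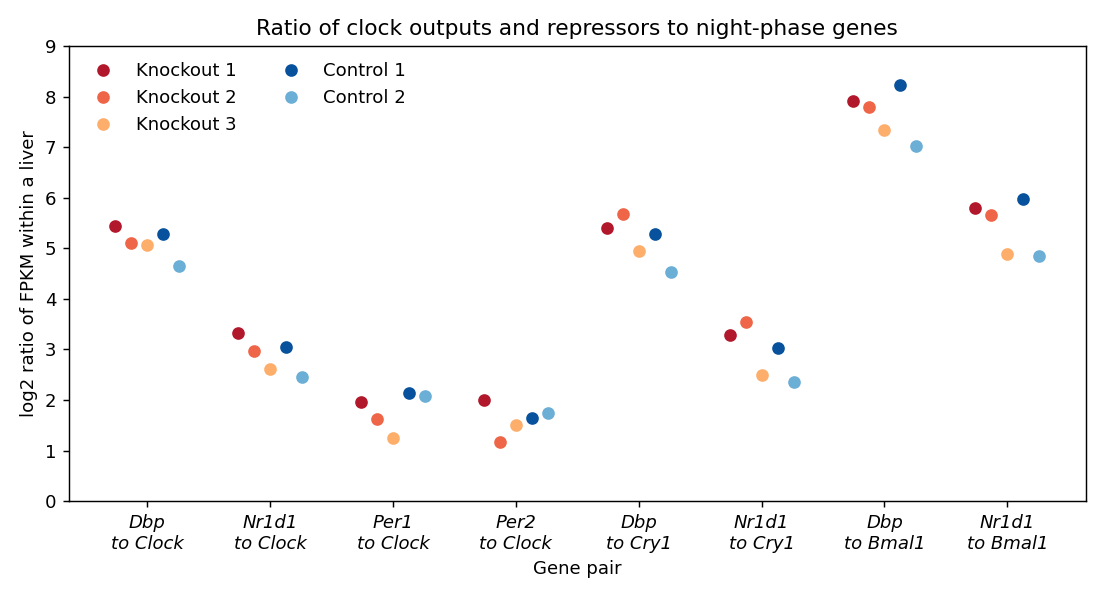
Log2 ratio of FPKM of 2 genes within a liver, 1 point per liver, knockouts before controls, for 8 gene pairs. Every ratio is above 0 in every liver, and the knockout and control livers overlap except for Per1 to Clock, where the 3 knockouts at 1.96, 1.63 and 1.24 lie below the controls at 2.14 and 2.07.

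Between genotypes none of the 10 members passed the test. With limma on log2(FPKM + 1) over 10820 rows and Benjamini-Hochberg adjustment at a threshold of 0.05, 0 members were called, where 0% of all rows were called. At an unadjusted p under 0.05 there were 0 of 10 members, where 7% of all rows had one. That count was 1 without knockout 1 (Per3), where 770 of 10841 rows had one. With quantile normalization it was 1 (Dbp), where 600 of 10820 rows had one. Without knockout 3 it was 2 (Nr1d1 and Dbp), where 635 of 10782 rows had one. The same 2 were found with the labels' replicate numbers fitted as a replicate block, where 966 of 10820 rows had one. That block gave the same differences as leaving out knockout 3 (0.453 for Dbp and 0.523 for Nr1d1), so the 2 settings are not separate. In these settings the limma adjusted p of these genes lay between 0.405 and 0.879. The members' median log2 difference, knockout minus control, was 0.127, with 7 higher and 3 lower, and that of all rows was 0.0612. Of all rows 64.2% were higher, and 50.7% were with median-of-ratios scaling. Knockouts and controls stood apart without overlap for 2 of 10 members, where 25.3% of all rows did so. The 1 higher member was Tef, where 18.9% of all rows were apart and higher, and the 1 lower member was Per1, where 6.38% were apart and lower. These shares are near the background and are no result about the clock genes. In bulk liver, fewer cells of a type and less RNA per cell cannot be told apart.

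**Figure D3:**
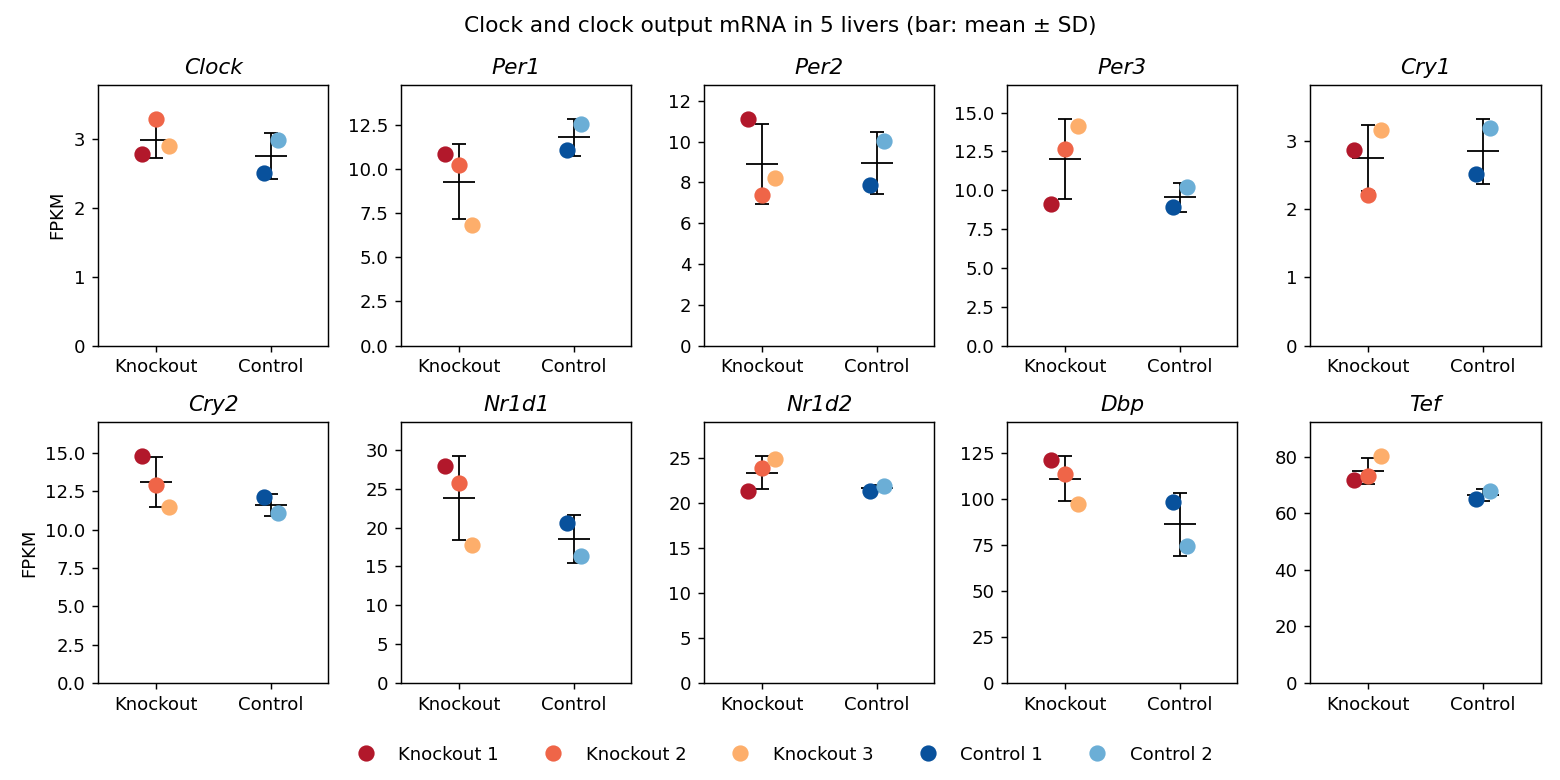
FPKM of each member, 1 point per liver, with knockouts left of controls and bars for mean ± SD (n = 3 knockouts and 2 controls). The groups are apart for Per1, where knockouts lie below controls, and for Tef, where they lie above, and they overlap for the other 8 genes.

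Clock (chromosome 5, 76209868 to 76304792, minus strand, GENCODE M21 on mm10) encodes the activator that gives the loop its name. It had 2.78, 3.29 and 2.90 FPKM in knockouts and 2.51 and 2.98 FPKM in controls. The groups overlapped, and the log2 difference was 0.0922 (SE 0.13, 95% interval -0.23 to 0.41, limma adjusted p = 0.877). It was 0.0388 without knockout 2, 0.00151 without control 1, 0.183 without control 2 and 0.0422 with median-of-ratios scaling. Among the members its spread between livers was small, at 1.31 times from the lowest to the highest liver. Npas2, whose product can replace CLOCK as partner of BMAL1, had 0.62 FPKM in control 1 and at most 0.04 FPKM in the other 4 livers, and was listed at 0 in control 2.

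The PER genes encode the partners of the CRY repressors, and Per1 and Per2 also respond to hormones. Per1 (chromosome 11, 69095217 to 69109960, plus strand) had 10.85, 10.21 and 6.85 FPKM in knockouts and 11.06 and 12.54 FPKM in controls. Knockout 3 stood well below the other livers, whereas knockouts 1 and 2 lay close under control 1. The log2 difference was -0.33 (SE 0.20, 95% interval -0.80 to 0.14, limma adjusted p = 0.739, exact permutation p = 0.3), and -0.149 without knockout 3. Per2 (chromosome 1, 91415982 to 91459324, minus strand) had 11.12, 7.38 and 8.20 FPKM in knockouts and 7.88 and 10.04 FPKM in controls. Its groups lay across each other, with a log2 difference of -0.0183 (95% interval -0.47 to 0.44, limma adjusted p = 0.988). Its sign turned without knockout 2, knockout 3 or control 2. Per3 (chromosome 4, 151003652 to 151044665, minus strand), the PER gene least needed for rhythm in mice, had 9.12, 12.64 and 14.16 FPKM in knockouts and 8.90 and 10.21 FPKM in controls. Knockouts 2 and 3 were above both controls and knockout 1 was between them. The log2 difference was 0.28 (95% interval -0.17 to 0.73, limma adjusted p = 0.775), 0.157 without knockout 3 and 0.449 without knockout 1. Per1 and Per3 thus had opposite patterns in knockout 3, which was the lowest liver for Per1 and the highest for Per3.

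The CRY genes encode the strongest repressors of CLOCK and BMAL1. Cry1 (chromosome 10, 85131700 to 85185064, minus strand) had 2.87, 2.21 and 3.16 FPKM in knockouts and 2.52 and 3.19 FPKM in controls. Cry2 (chromosome 2, 92403646 to 92434043, minus strand) had 14.78, 12.89 and 11.50 FPKM in knockouts and 12.13 and 11.10 FPKM in controls. Both genes had groups that overlapped. The log2 difference was -0.0441 for Cry1 (95% interval -0.44 to 0.35, limma adjusted p = 0.958) and turned positive without knockout 2 or control 2. It was 0.15 for Cry2 (95% interval -0.17 to 0.47, limma adjusted p = 0.812), and the Cry2 value was 0.0641 without knockout 1, 0.0918 without control 2, 0.232 without knockout 3 and 0.0878 with median-of-ratios scaling. Cry2 mRNA was the more abundant of the pair in all 5 livers.

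The REV-ERB genes encode heme-binding receptors that repress Bmal1 and many lipid genes. Nr1d1 (chromosome 11, 98767932 to 98775333, minus strand) had 27.90, 25.73 and 17.70 FPKM in knockouts and 20.62 and 16.30 FPKM in controls. Knockouts 1 and 2 were above both controls and knockout 3 was between them. The log2 difference was 0.33 (SE 0.21, 95% interval -0.17 to 0.84, limma adjusted p = 0.767, exact permutation p = 0.3), 0.172 without control 2 and 0.523 without knockout 3. Nr1d1 overlaps Thra on the opposite strand. No source used here says whether counting used strand, so in their shared stretch the reads of the 2 genes cannot be told apart. Thra had 5.10, 5.63 and 6.06 FPKM in knockouts and 5.09 and 4.41 FPKM in controls, a liver order unlike that of Nr1d1. Nr1d2 (chromosome 14, 18204054 to 18239127, minus strand) had 21.37, 23.91 and 24.90 FPKM in knockouts and 21.39 and 21.92 FPKM in controls. It was among the steadiest members, with 1.17 times from the lowest to the highest liver and a log2 difference of 0.10 (95% interval -0.15 to 0.36, limma adjusted p = 0.834). That difference was 0.165 without knockout 1, 0.0594 without knockout 3 and 0.0388 with median-of-ratios scaling.

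The PAR-bZIP genes are the outputs of the loop. Dbp (chromosome 7, 45705088 to 45710203, plus strand) had 121.32, 113.29 and 97.36 FPKM in knockouts and 98.23 and 74.21 FPKM in controls. Knockouts 1 and 2 were above both controls, and knockout 3 was just under control 1. The log2 difference was 0.36 (SE 0.16, 95% interval -0.01 to 0.74), with an unadjusted limma p of 0.0542, the smallest among the members, and an adjusted p of 0.708. It was 0.164 without control 2 and 0.564 without control 1. Dbp overlaps Sphk2 on the opposite strand, which had 15.23, 15.48 and 11.98 FPKM in knockouts and 14.13 and 12.13 FPKM in controls. Tef (chromosome 15, 81802421 to 81826863, plus strand) had 71.67, 73.21 and 80.23 FPKM in knockouts and 65.13 and 68.02 FPKM in controls. Each knockout was above each control, by a log2 difference of 0.17 (SE 0.10, 95% interval -0.06 to 0.40, limma adjusted p = 0.739, exact permutation p = 0.1, the smallest that 10 splits allow). With median-of-ratios scaling, which moved the median of all rows to 0.00255, the Tef difference was 0.102.

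**Figure D4:**
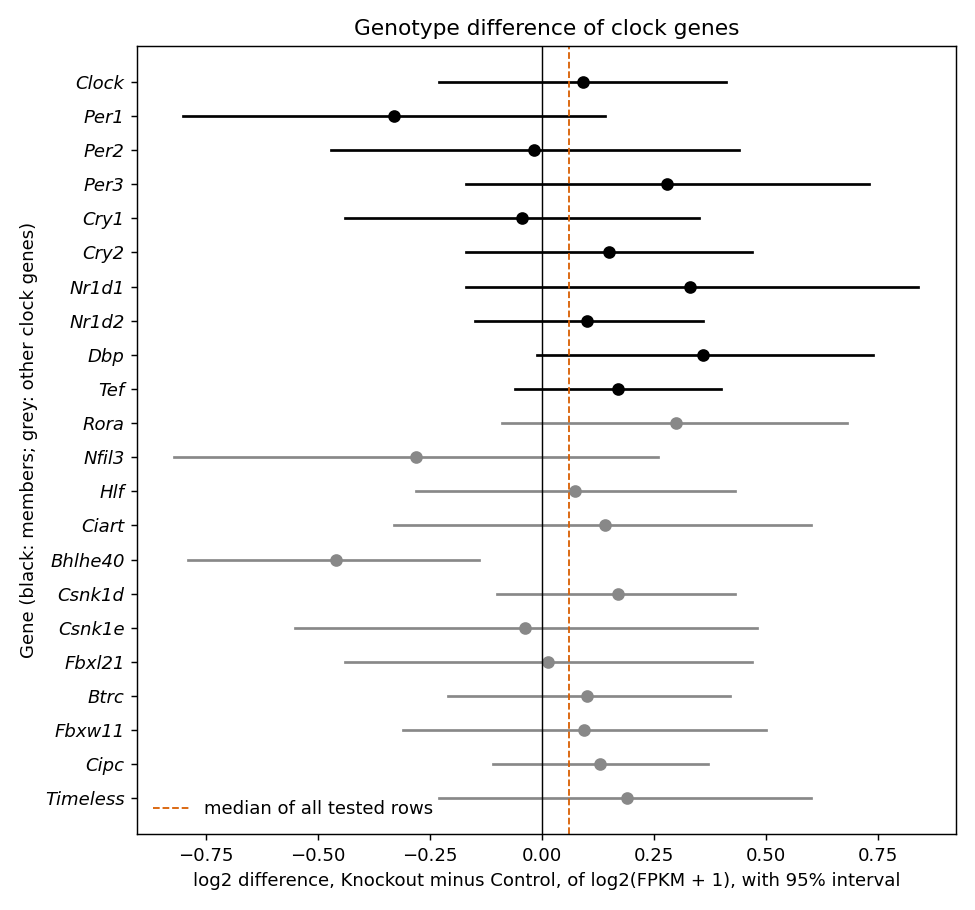
Log2 difference, knockout minus control, of log2(FPKM + 1), with its 95% interval from limma, for the 10 members (black) and the 12 other clock genes that passed the filter (grey). The intervals of all 10 members include 0. That of Bhlhe40 lies below 0, and its adjusted p did not pass.

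Spread between livers of the same genotype differed among the members. The pooled within-genotype SD of log2(FPKM + 1) was 0.303 for Nr1d1, 0.272 for Per1, 0.260 for Per2, 0.258 for Per3 and 0.210 for Dbp. It was 0.188 for Cry1, 0.146 for Cry2, 0.107 for Clock, 0.0904 for Nr1d2 and 0.0741 for Tef. Of all rows, 86.8% had an SD at or below that of Nr1d1, and 13.9% at or below that of Tef. The median over the 10 members was 0.199, and 4 of them lay under the median of all rows, 0.150. This scale lowers the spread of genes with few FPKM, such as Clock and Cry1, so the order of the members may depend on the pseudocount. The median of the members was 0.23 with a pseudocount of 0.1 and 0.15 with a pseudocount of 5. From the lowest to the highest of the 5 livers the members spanned between 1.17 times (Nr1d2) and 1.83 times (Per1).

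Only 1 order of the livers was shared between members, by 3 of them, and each other member had its own. That of Clock was shared with Fbxl21 and Fbxw11, which are no members, and was found in 1.3% of all tested rows. Nr1d1, Dbp and Cry2 ranked the livers identically, with knockout 1 highest, then knockout 2, control 1, knockout 3 and control 2. Ciart, a CLOCK-BMAL1 repressor that is no member, had 25.42, 23.83 and 17.92 FPKM in knockouts and 23.44 and 17.13 FPKM in controls, which is the same order. That order was found in 1.09% of all tested rows. Per3 ranked the livers with knockout 3 highest, then knockout 2, control 2, knockout 1 and control 1, an order shared with Timeless and found in 2.15% of all tested rows. Tef and Nr1d2 also had knockout 3 highest and knockout 2 next. Per1 had knockout 3 lowest. The Per3 to Dbp ratio, chosen after its values were seen, was 0.0752, 0.112 and 0.145 in knockouts and 0.0906 and 0.138 in controls. Knockout 3 and control 2 were highest and knockout 2 was in the middle. Knockout 1 and control 1, both labelled replicate 1, were lowest. The genotypes overlapped. As the ratio was picked for its values, no conclusion is drawn from this split. These orders describe 5 livers and carry no test.

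**Figure D5:**
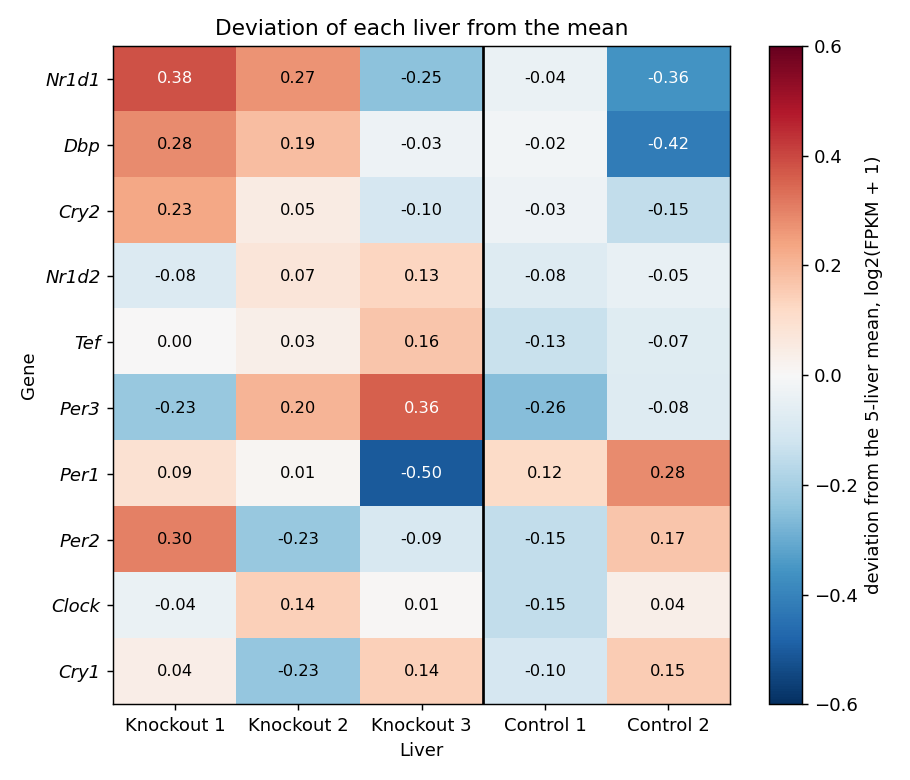
Deviation of each liver from the mean of the 5 livers in log2(FPKM + 1), 1 row per member and 1 column per liver, knockouts left of the line and controls right of it. Nr1d1, Dbp and Cry2 share 1 pattern, with 0.38, 0.28 and 0.23 in knockout 1, and Per1 in knockout 3 has the lowest value, -0.50.

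The members were also grouped by the known hour of their peak. From the lowest to the highest liver the group averages spanned 0.348 log2 units for the light-phase members and 0.443 for the dusk members. The 5 light-phase members (Nr1d1, Nr1d2, Dbp, Tef and Per3) deviated on average by 0.072, 0.153 and 0.075 log2 units in knockouts and by -0.105 and -0.195 in controls. The 3 dusk members (Per1, Per2 and Cry2) deviated by 0.209, -0.056 and -0.233 in knockouts and by -0.020 and 0.101 in controls. Clock and Cry1, which peak between late night and dawn, deviated by -0.001, -0.044 and 0.074 in knockouts and by -0.123 and 0.094 in controls. The light-phase average was higher in each knockout than in each control, while the dusk average and that of Clock and Cry1 overlapped. Of all tested rows, 18.9% were apart and higher, and the median difference of all rows was 0.0612, also toward higher values in knockouts. That share is for single rows, whereas an average of 5 genes varies less. Averages of 5 other rows were not computed, so the share is no background for the light-phase average. Among the light-phase members only Tef was apart by itself, and the members differed within a liver. In knockout 1 Nr1d1 deviated by 0.38 and Per3 by -0.23, and in knockout 3 Nr1d1 deviated by -0.25 and Per3 by 0.36. Bmal1, Npas2 and Nfil3, which are no members, deviated by -0.002, -0.003 and -0.189 in knockouts and by 0.141 and 0.053 in controls. Each knockout thus lay below each control in this average. Of all tested rows 6.38% were apart and lower, but that share is for single rows that passed the filter. None of these genes was apart by itself. The log2 differences were 0.0881 for Bmal1, -0.29 for Npas2 and -0.28 for Nfil3, so Bmal1 went the other way. With a pseudocount of 0.1 these genes deviated by -0.075, -0.072 and -0.265 in knockouts and by 0.538 and -0.125 in controls, and the groups overlapped. Bmal1 and Npas2 had FPKM under 1.

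Of the 15 other clock genes, 12 passed the filter, and 0 were called by limma in either direction. At an unadjusted p under 0.05 there was 1 of 12, where 7% of all rows had one. It was Bhlhe40, which encodes the repressor DEC1 that competes for E-boxes. Bhlhe40 had 46.32, 36.18 and 36.76 FPKM in knockouts and 57.63 and 52.28 FPKM in controls. All 3 knockouts were below both controls, with a log2 difference of -0.46 (SE 0.14, 95% interval -0.79 to -0.14, limma adjusted p = 0.70). Its relative Bhlhe41 (DEC2), under the filter, had 0.78, 1.33 and 1.34 FPKM in knockouts and 0.57 and 0.37 FPKM in controls. Rora, a ROR receptor gene whose product acts at the same elements as the REV-ERBs, had 5.54, 5.53 and 7.55 FPKM in knockouts and 4.49 and 5.18 FPKM in controls. The groups were apart, and Rora did not pass (limma adjusted p = 0.731). Groups did not overlap for 4 of the 12, namely Bhlhe40, Rora, Cipc and Csnk1d, where 25.3% of all rows did so. The 3 higher genes stand against 18.9% of all rows that were apart and higher, and the 1 lower gene against 6.38% that were apart and lower.

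Nfil3, the D-box repressor, had 5.66, 5.6 and 3.23 FPKM in knockouts and 5.49 and 6.41 FPKM in controls. Knockout 3 was the lowest liver for Nfil3, as it was for Per1. Hlf, the remaining PAR-bZIP gene, had 14.47, 13.68 and 10.76 FPKM in knockouts and 12.88 and 11.53 FPKM in controls, with a log2 difference of 0.0732. The genes that control the stability of PER and CRY proteins by phosphorylation or ubiquitination (Csnk1d, Csnk1e, Fbxl21, Btrc and Fbxw11), together with Cipc and Timeless, had log2 differences between -0.0373 (Csnk1e) and 0.19 (Timeless), and adjusted p between 0.775 and 0.992. The median of the 12 genes was 0.0968, with 9 higher and 3 lower, where 64.2% of all rows were higher and their median was 0.0612 over both directions.

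Genes known to follow the liver clock had a larger median spread between livers than the clock genes. Of the 13 clock outputs 0 were called by limma, and the median log2 difference was -0.042, where that of all rows was 0.0612. An unadjusted limma p under 0.05 was found for 2, where 7% of all rows had one. Both of these genes were lower in knockouts. Groups were apart for the same 2, Rgs16 and Noct, where 6.38% of all rows were apart and lower. Rgs16, a regulator of G-protein signalling with a feeding-linked liver rhythm, had 45.70, 29.07 and 18.29 FPKM in knockouts and 232.44 and 72.62 FPKM in controls. All 3 knockouts were below both controls (log2 difference -2.13, 95% interval -3.42 to -0.83, limma adjusted p = 0.689). Noct, a rhythmic phosphatase gene, had 11.69, 9.97 and 7.71 FPKM in knockouts and 11.84 and 25.82 FPKM in controls. Knockout 1 lay only just below control 1. Elovl3, a rhythmic fatty acid elongase gene, had 34.13, 45.45 and 17.51 FPKM in knockouts and 18.04 and 16.81 FPKM in controls, and overlapped. Gys2, liver glycogen synthase, had a log2 difference of 0.24 (limma adjusted p = 0.815). The median within-genotype SD was 0.199 for the members and 0.488 in this list.

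Of the 6 PAR-bZIP targets 4 passed the filter and 0 were called, with 3 lower and a median log2 difference of -0.329. Of all 10820 rows 3878 were lower, and their median was 0.0612 over both directions. Groups were apart for 1 of the 4 targets, Nr1i3, where 6.38% of all rows were apart and lower. Nr1i3, which encodes the drug receptor CAR, had 113.23, 119.50 and 81.22 FPKM in knockouts and 152.42 and 153.72 FPKM in controls (log2 difference -0.56, 95% interval -0.98 to -0.15, limma adjusted p = 0.70). The knockouts were all below the controls for Nr1i3. Dbp and Tef, known activators of this gene, had higher averages in knockouts, with overlapping groups for Dbp. None of these differences passed, and the part of Dbp and Tef in the Nr1i3 values was not tested. Cyp2b10, a target of CAR, had 0.16, 0.22 and 0.20 FPKM in knockouts and 0.66 and 1.46 FPKM in controls, under the filter. Cyp2a5 had 250.11, 284.82 and 258.88 FPKM in knockouts and 259.38 and 411.16 FPKM in controls. Alas1, the first enzyme of heme synthesis, had 420.15, 1060.97 and 868.19 FPKM in knockouts and 702.51 and 1234.24 FPKM in controls. Both overlapped.

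Lists of genes that answer signals able to reset the liver clock were read in the same fit, and 0 genes were called in any of them. Among 8 glucocorticoid genes the median log2 difference was -0.0736, where that of all rows was 0.0612. Tsc22d3, which encodes the glucocorticoid-induced leucine zipper, had 74.29, 45.13 and 30.99 FPKM in knockouts and 97.30 and 120.54 FPKM in controls (log2 difference -1.19, limma adjusted p = 0.70). It ranked all 5 livers as Per1 did, an order found in 0.591% of tested rows and also in Noct and G6pc1, which belong to other lists. Fkbp5 and Zbtb16, also induced by glucocorticoids, had log2 differences of 0.19 and 0.24 (limma adjusted p = 0.924 and 0.937). Tat, tyrosine aminotransferase, was lowest in knockout 3, at 255.15 FPKM, with 708.05 and 537.39 FPKM in knockouts 1 and 2 and 646.32 and 902.73 FPKM in controls. Klf9 and Sgk1 overlapped, with log2 differences of 0.26 and -0.17. The part of glucocorticoid signalling in the Per1 values was not tested.

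Among the 8 temperature genes 7 passed the filter, with a median log2 difference of 0.177, where that of all rows was 0.0612. Hsph1, a heat shock chaperone gene, had 33.38, 25.59 and 25.83 FPKM in knockouts and 19.35 and 19.94 FPKM in controls (log2 difference 0.49, limma adjusted p = 0.70). The other chaperone genes named by p were Hsp90aa1, Hspa8 and Dnajb1, with log2 differences of 0.18, 0.22 and 0.20. Of the rest, Hspa1b was at 0.10. Rbm3, Cirbp and, below the filter, Hspa1a went the other way, at -0.15, -0.0873 and -0.18. Of the 11 feeding and fasting genes 8 passed the filter, with 6 lower, where 3878 of all 10820 rows were lower, and a median of -0.357. The list holds genes of feeding and of fasting, so this count and median have no direction of feeding state. G6pc1, the glucose-6-phosphatase gene of glucose release, had 89.04, 54.10 and 33.93 FPKM in knockouts and 166.50 and 244.58 FPKM in controls (log2 difference -1.86, limma adjusted p = 0.675). Pdk4, below the filter, had at most 0.59 FPKM in knockouts and 1.10 and 0.99 FPKM in controls, and Cpt1a, which encodes the entry enzyme of mitochondrial fatty acid oxidation, had a log2 difference of 0.34. Srebf1, a lipogenic regulator known to be higher after feeding, had 107.94, 103.38 and 139.27 FPKM in knockouts and 126.00 and 228.78 FPKM in controls, and overlapped. Fasn, the fatty acid synthase gene, also overlapped, with a log2 difference of 0.47 against -0.55 for Srebf1. The feeding state of the mice was not tested.

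The members were left out before rows were ranked by the likeness of their 5-liver profile to those of Dbp and Clock. Nr1d1 and Cry2, which share the liver order of Dbp, therefore could not appear. The closest rows were not other clock genes of the list. Likeness was the root mean square difference of profiles centred on their mean in log2(FPKM + 1), over 5 livers. The 5 closest to Dbp were Ift70b (0.034), Npff (0.039), Rbm38 (0.041), 2310022B05Rik (0.045) and Cbx2 (0.047), where the median row stood at 0.269. The 5 closest to Clock were Rspry1 (0.011), Stat5a (0.015), Kif3b (0.016), Ccdc85c (0.018) and Slc30a5 (0.018), where the median row stood at 0.165. With 5 points, many of the 10820 rows can lie close by, and the Clock profile is nearly flat.

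Facts on the libraries bear on all of these values. The targeted gene Heg1 had 0.45, 0.43 and 0.50 FPKM in knockouts and 0.48 and 0.35 FPKM in controls, an overlap (log2 difference 0.0464, limma adjusted p = 0.934 with a filter of 0.1 FPKM, exact permutation p = 0.5), so whole-liver FPKM give no check of the genotype labels. Lyve1, which marks the cells that carry the Cre, had between 3.90 and 10.49 FPKM. The 7 hepatocyte markers summed to between 66207 and 81590 FPKM in knockouts and between 77990 and 83411 FPKM in controls, far above those of any other cell type list. The 5 erythrocyte markers summed to 1328.77, 243.92 and 140.52 FPKM in knockouts and 135.77 and 146.06 FPKM in controls, so knockout 1, the highest liver for Nr1d1, Dbp and Cry2, also had the most erythrocyte mRNA. Without knockout 1 the log2 difference was 0.209 for Nr1d1, 0.295 for Dbp and 0.0641 for Cry2. Summed markers of the other lists ran from 176 to 222 FPKM in knockouts and from 127 to 219 FPKM in controls for 5 Kupffer genes, from 101 to 138 and from 105 to 126 FPKM for 5 sinusoidal genes, and from 72.3 to 108 and from 92.4 to 102 FPKM for 4 stellate genes. They ran from 3.43 to 5.99 FPKM in knockouts and from 2.25 to 3.71 FPKM in controls for 4 cholangiocyte genes, from 0.73 to 1.47 and from 0.61 to 0.70 FPKM for 4 lymphocyte genes, and from 3.83 to 7.97 and from 3.02 to 4.92 FPKM for 3 neutrophil genes, of which Ly6g was at 0 in at least 1 liver. Their part in the clock gene values was not tested.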

How the data were processed

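The authors deposited FPKM per gene symbol, rounded to 2 decimals, in 2 tables whose 33589 rows were identical; 0 columns belonged to other samples. Per the submitters' processing notes, HISAT2, StringTie and DESeq2 were used with mm10, without versions or roles. Depth is unknown: in 1-exon genes of 150 to 900 nt, at most 35.3% of low values lay within 0.1 of a whole multiple of any step, so reads were not recovered. FPKM sums were between 797692 and 820498 per library.

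Groups came from the sample titles. limma 3.58.1 (R 4.3.3, trended prior variance) was fitted to log2(FPKM + 1) of 10820 rows with a mean of at least 1 FPKM, with genotype as the only term, two-sided tests and Benjamini-Hochberg adjustment over all rows. Differences on this scale understate changes of low genes. The test was tried on simulated data. Exact permutation used the 10 splits of 5 livers into 3 and 2, with a smallest p of 0.1. Alternatives were pseudocounts of 0.1 and 5, other filters, 2 scalings, a replicate block and leaving out each liver. Named were all members, all other clock genes and the nearest profiles. Bmal1 is the deposited symbol for Arntl. Of each output list up to 4 genes were named by smallest p. Thra, Sphk2, some further list genes and liver orders were added after values were seen. Members and lists were chosen with earlier results of these data known. Positions are from GENCODE M21 and promoter windows from RefSeq. Some list genes are not reported here. Lists were described by counts and medians, without set tests.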

Additional observations from a re-analysis of the deposited data

How the results depend on the processing

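With limma, 0 of the 10 members, 0 other clock genes and 0 genes of the output and signal lists passed the adjusted threshold under any of the 12 alternatives run. The count over all rows was 0 except for 5 rows with the replicate block, and it lay between 0 and 1 when each liver was left out in turn, with the 1 row found without control 1. A control left alone is assumed there to vary like the knockouts. With the filter of a mean of at least 5 FPKM, Clock, Cry1 and some other clock genes, such as Csnk1e, Fbxl21 and Timeless, were not tested. Signs of small member differences turned for Per2 (0.0255 with the replicate block, and between -0.175 and 0.139 when livers were left out) and for Cry1 (between -0.17 and 0.0816). The Heg1 difference was -0.0117 with quantile normalization and lay between -0.0199 and 0.113 when livers were left out; the cause was not tested. The light-phase average, knockout minus control, was 0.185 with median-of-ratios scaling against 0.25 as deposited, and that of Bmal1, Npas2 and Nfil3 was -0.344 with a pseudocount of 0.1 against -0.161, as a small pseudocount weights the low Npas2 values. The labels' replicate numbers are shared by 2 pairs of livers only, whose deviations from the group means correlated across genes at 0.227 and 0.196. Fitting that pairing as a replicate block leaves knockout 3 without a partner and gave log2 differences of 0.453 for Dbp (limma adjusted p = 0.446, unadjusted 0.0101) and 0.523 for Nr1d1 (limma adjusted p = 0.405, unadjusted 0.00633). Both differences equal those found without knockout 3. With quantile normalization the unadjusted p of Dbp was 0.0481. FPKM without read depth give no counting error, and 5 livers without collection hours limit what can be read as phase.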
